A study of Homo sapiens with 6 samples.

Results

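The regions described here are stretches of open chromatin inside protein-coding gene bodies that had a peak in all 3 DMSO libraries and in no CB-6644 library. Peaks from the 6 deposited lists on chromosomes 1 to 22, X and Y were merged where they shared at least 1 bp, which gave 89196 regions. Regions that touched the 1000 bp around the transcription start site (TSS) of a protein-coding transcript, counted each way, were set aside, and 34917 of the others had their midpoint inside a protein-coding gene. Of these, 1955 were DMSO-only and are called members below. DMSO-only regions were 4.5% of all merged regions and 5.6% of the distal gene-body regions. The mirror rule found 237 CB-6644-only regions, which were 0.679% of the distal gene-body regions. The members were thus chosen by the peak calls of all 6 libraries, so their presence with DMSO and absence with CB-6644 is a description and carries no test.

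The cells were MM.1S, an established human multiple myeloma line, so all values come from 1 cell line. In the CB-6644 group, 3 libraries were made from cells given 120 nM of the compound for 72 h, and the control group held 3 libraries from cells given the DMSO vehicle. Per the study's methods, live cells were sorted before Omni-ATAC, an assay in which a transposase inserts adapters into open chromatin. Nothing in the labels says that replicates came from separate cultures, so the spread between them may be technical.

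CB-6644 blocks the ATPase activity of RUVBL1 and RUVBL2, paired AAA+ proteins that are shared by the INO80, SRCAP and TIP60 chromatin complexes and by co-chaperone assemblies. Open sites within introns are often enhancers, short elements where transcription factors bind and act on the host gene or on another gene. In plasma cells, IRF4 binds interferon-type elements, and in stressed cells ATF4 pairs with C/EBP proteins on a composite element near genes of amino acid supply.

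Sequences are shown for the 10 members with the highest rank in their weakest DMSO list, because they ranked highest among the sites with no peak after CB-6644, and for 1 member chosen as the highest ranking with a MAF element near its summit. Each run is the plus strand of hg38, 50 bases on either side of the strongest summit, written 5′ to 3′. Capitals mark, on either strand, the ATF4-CEBP composite element TGATGNAA, the E-box CAGGTG, the MAF half-site TGCTGAC and the interferon-stimulated response element (ISRE). Runs with no capitals held none of these. The positions are chr1:228490610-228490710 for RNF187, chr7:117838006-117838106 for CTTNBP2, chr7:118311576-118311676 for ANKRD7, chr12:52280407-52280507 for KRT86, chr7:120402520-120402620 for KCND2, chr10:54993287-54993387 for PCDH15, chr10:88297267-88297367 for RNLS, chr9:130448166-130448266 for ASS1, chr11:78290393-78290493 for GAB2, chr2:189933187-189933287 for C2orf88 and chr2:204796707-204796807 for PARD3B. All 11 lie in introns.
RNF187: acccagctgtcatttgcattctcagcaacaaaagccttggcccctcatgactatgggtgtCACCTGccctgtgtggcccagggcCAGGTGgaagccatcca
CTTNBP2: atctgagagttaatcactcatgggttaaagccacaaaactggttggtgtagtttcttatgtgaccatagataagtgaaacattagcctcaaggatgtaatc
ANKRD7: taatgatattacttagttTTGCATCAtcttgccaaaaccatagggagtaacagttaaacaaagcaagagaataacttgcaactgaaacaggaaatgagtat
KRT86: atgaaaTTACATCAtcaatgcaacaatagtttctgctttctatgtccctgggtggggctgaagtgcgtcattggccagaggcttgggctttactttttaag
KCND2: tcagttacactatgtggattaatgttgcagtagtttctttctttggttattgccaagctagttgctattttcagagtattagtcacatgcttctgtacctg
PCDH15: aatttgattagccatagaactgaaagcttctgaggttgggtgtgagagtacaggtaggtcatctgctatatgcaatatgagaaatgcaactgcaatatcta
RNLS: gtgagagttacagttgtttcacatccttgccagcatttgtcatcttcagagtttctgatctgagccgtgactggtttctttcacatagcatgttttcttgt
ASS1: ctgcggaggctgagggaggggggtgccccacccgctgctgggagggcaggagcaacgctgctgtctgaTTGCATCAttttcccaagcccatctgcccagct
GAB2: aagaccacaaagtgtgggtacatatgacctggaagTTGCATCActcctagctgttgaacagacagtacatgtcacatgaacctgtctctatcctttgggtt
C2orf88: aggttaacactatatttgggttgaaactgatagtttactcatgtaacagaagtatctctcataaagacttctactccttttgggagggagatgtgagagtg
PARD3B: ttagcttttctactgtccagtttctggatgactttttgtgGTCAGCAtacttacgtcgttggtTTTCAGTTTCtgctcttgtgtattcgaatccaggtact

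The lists differed in length and in their shortest peaks, and the number of members moved with list length. The CB-6644 lists held 58563 to 71781 peaks and the DMSO lists 65569 to 79020. CB-6644 replicate 2 had peaks as short as 65 bp and DMSO replicate 1 as short as 91 bp, while no peak of the other 4 libraries was under 131 bp. When each list was shortened to its 58563 highest peaks, 939 DMSO-only and 513 CB-6644-only regions inside gene bodies were left. With the 20000 highest peaks of each list, the counts were 353 and 271. The excess of DMSO-only over CB-6644-only regions was thus smaller among peaks of higher rank. Leaving out a library gave 2218 to 2847 DMSO-only regions. For CB-6644-only regions, leaving out DMSO replicate 1 gave 480, leaving out CB-6644 replicate 2 gave 432 and leaving out CB-6644 replicate 3 gave 413. With only the 4 libraries without such short peaks, the counts were 3450 and 709, but this rule asks for 2 libraries a group, and leaving out any 1 library also raised both counts.

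The members were weak to moderate peaks in the libraries that held them. Within each list, peaks were ranked by -log10 p and given a percentile, and the median member stood at percentile 23.7 in DMSO replicate 1, 27.4 in replicate 2 and 25.1 in replicate 3. The pile-up at the summit, recovered as whole tags from the fold and the p-value, had a median of 18, 30 and 29 tags in DMSO replicates 1, 2 and 3, where the medians of the whole lists were 34, 49 and 51 tags. Only 9.46%, 10.6% and 9.41% of the members lay above the median of their list. Tags alone do not account for the local background. The fold over that background had a median of 9.48, 10.5 and 9.87 in members. The weakest members sat in KLF12, SDK1 and TMEM154, with lowest percentiles of 0.0206, 0.0569 and 0.158. Just outside the rule, regions in ACOT9, DSCAM and HS3ST1 missed it through a single CB-6644 peak at percentiles 0.0387, 0.0512 and 0.119 of its list. On the other limit of the rule, the members nearest to a TSS lay 1027, 1041 and 1057 bp from it, and the farthest DMSO-only regions set aside as promoters lay 981, 965 and 959 bp from it.

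The 10 members that ranked highest were covered well beyond what a call needed. RNF187 encodes a RING-type ubiquitin ligase, and the site in its second canonical intron, 3.19 kb from the TSS, had 194, 248 and 207 tags in DMSO replicates 1, 2 and 3. The site in the second intron of CTTNBP2, which encodes a cortactin-binding protein, had 83, 125 and 142 tags. ASS1 encodes argininosuccinate synthase of the arginine pathway, and its site in the first intron, 3.28 kb from the TSS, had 76, 152 and 128 tags. All 10 sites stood at percentile 65.1 or higher in every DMSO list and had no peak in any CB-6644 list. DMSO replicate 1 had the lowest pile-up at each of the 10. Its background was also the lowest of the DMSO libraries, at 0.583 tags against 1.19 and 1.23. In ANKRD7 it had 78 tags against 160 and 203, but a fold of 20.6 against 19.7 and 18.8. In RNLS its fold was 26.4 against 27.0 and 21.8. The site of the hair keratin gene KRT86 had 72, 114 and 140 tags, and that of the potassium channel gene KCND2 had 55, 112 and 101 tags. The sites of PCDH15, a protocadherin gene, and of RNLS, which encodes renalase, had 50, 83 and 87 tags and 60, 98 and 74 tags. GAB2, an adaptor of receptor signaling, had 48, 69 and 65 tags, and C2orf88 had 55, 67 and 94 tags. Of these 10 sequences, 4 held the ATF4-CEBP element within the printed bases, in ANKRD7, KRT86, ASS1 and GAB2.

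**Figure D1:**
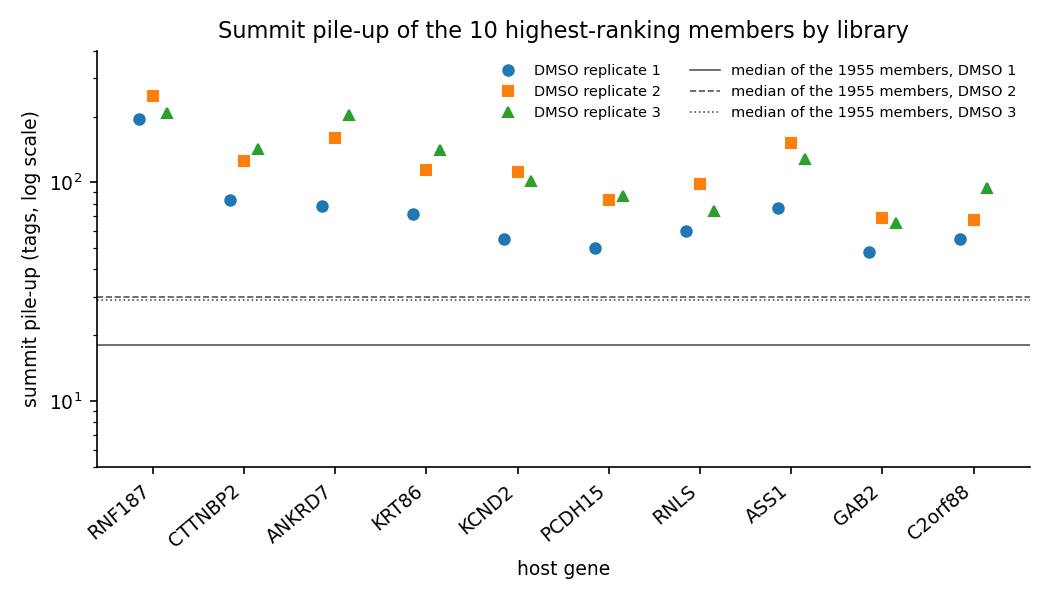
Summit pile-up in tags (log scale) of the 10 members that ranked highest, in each DMSO library, with the median of the 1955 members in each library as horizontal lines. Every point lies above its library's median of 18, 30 or 29 tags, and the RNF187 site is highest, at 194 to 248 tags.

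Whether a site of this strength could have been called in a CB-6644 library was read from the background of each list. The genome-wide background was 0.782, 0.208 and 0.980 tags in CB-6644 replicates 1, 2 and 3, and the lowest pile-up called was 7, 4 and 8 tags. If a site had kept its DMSO enrichment over the genome-wide background, 1954 of the 1955 members would have passed that limit in replicate 1, 1435 in replicate 2 and 1955 in replicate 3. All 3 limits were passed by 1435 members (73.4%), of which 424 (21.7% of all members) reached at least 2 times each limit. These limits apply at the genome-wide background, and a site in higher local background needs more tags. In this respect both counts are upper estimates. They also assume that enrichment can be carried from one library to another. The median peak had 22 tags over a background of 0.208 in CB-6644 replicate 2 and 34 over 0.583 in DMSO replicate 1. The part of such library differences in the counts was not tested. A site in a coding exon of IRF4 reached at least 3.21 times each limit, although it ranked at percentile 1.10 in its weakest DMSO list. At the members that did not pass, a site of unaltered enrichment would have been below the limit of CB-6644 replicate 2. Loss of a call is not loss of all accessibility, because sites just under the limit leave no record in the lists. The nearest CB-6644 peak lay at a median of 9.48 kb, with 112 members within 500 bp of one and 947 more than 10 kb from any. A further 1394 gene-body regions had peaks in all 3 DMSO libraries and in 1 CB-6644 library, and CB-6644 replicate 2 supplied 556 (39.9%) of these single calls.

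Inside genes, the members lay far into introns. The midpoint of 1815 members (92.8%, 95% Wilson interval 91.6 to 93.9) was in an intron, 80 (4.09%) in a UTR, 33 (1.69%) in a coding exon and 27 (1.38%) in another exon. Among the 13949 distal gene-body regions called in all 6 libraries, 88.7% (88.2 to 89.2) were intronic and 4.05% (3.74 to 4.39) were in coding exons. Another 1819 regions had, like the members, exactly 3 calls, but from libraries of both groups, and here these shares were 89.6% (88.1 to 90.9) and 4.07% (3.25 to 5.08). The first intron of the canonical transcript held 469 members (24.0%), compared with 22.0% of the regions called in all 6 libraries. The median member was 62.6 kb from the TSS of its host gene, against 51.0 kb for regions in 3 libraries of both groups and 47.5 kb for regions in all 6. Hosts of members were long, with a median over members of 183 kb against 141 kb and 133 kb. The 1394 regions with 3 DMSO calls and 1 CB-6644 call lay close to the members in place. They were intronic in 92.0% (90.4 to 93.3), with medians of 59.7 kb from the host TSS and 166 kb of gene length. Intervals here and below cover counting error only, and regions are not replicates.

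The members were AT-rich. The median GC content of the 100 bp on either side of the strongest summit was 41.3% in members, 47.8% in regions called in 3 libraries of both groups, 48.3% in CB-6644-only regions and 49.8% in regions called in all 6. Regions with 3 DMSO calls and 1 CB-6644 call lay between, at 44.3%. The share of distal gene-body regions that were members fell from 13.6% (11.9 to 15.4) below 35% GC to 1.16% (0.859 to 1.55) at 60% GC or more. It rose with the length of the host gene, from 4.02% (3.57 to 4.52) in genes under 50 kb to 7.52% (6.83 to 8.28) in genes over 500 kb. GC content also moved with the library. Over peaks in distal gene-body regions that were not confined to a group, the median GC was 49.3% in CB-6644 replicate 2, 47.3% in DMSO replicates 2 and 3, and 48.3% in the other 3 libraries. For peaks called in a single library, it was 40.8% and 42.3% in DMSO replicates 3 and 2 but 46.8% in DMSO replicate 1, and 44.8% to 49.3% in the CB-6644 libraries. The part of such library differences in the GC content of the members was not tested.

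**Figure D2:**
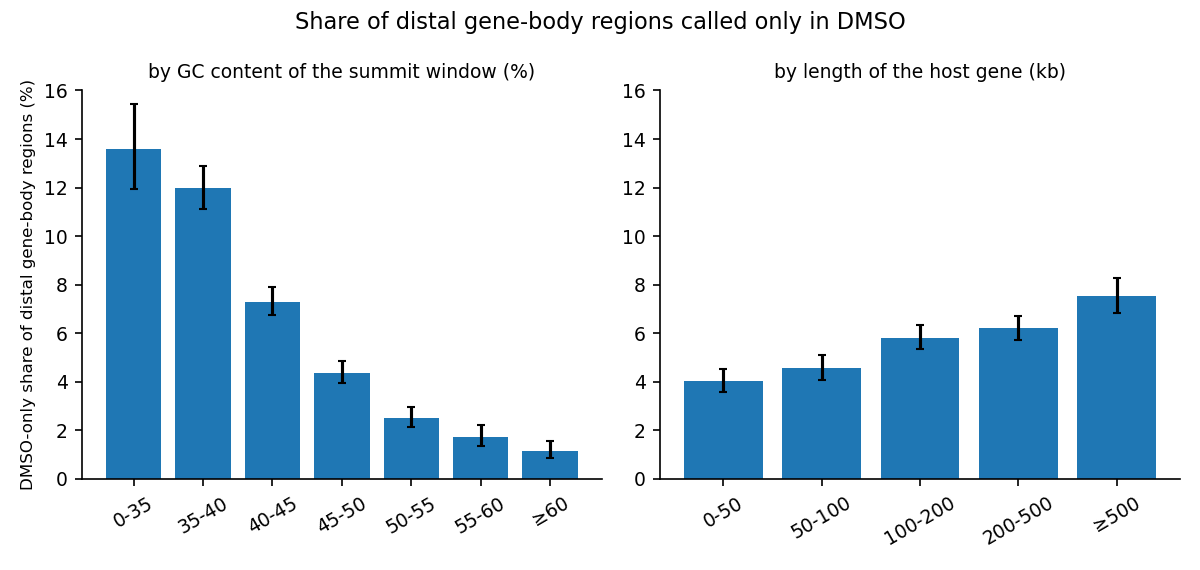
DMSO-only share (%) of the distal gene-body regions by GC content of the summit window (left) and by length of the host gene (right), with bars for the share and lines for 95% Wilson intervals. The share falls from 13.6% to 1.16% with GC content and rises from 4.02% to 7.52% with gene length.

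Consensus elements were read in the 100 bp on either side of the strongest summit, on both strands. The ATF4-CEBP composite element was in 240 members (12.3%, 10.9 to 13.8). It was in 3.19% (2.47 to 4.10) of the regions called in 3 libraries of both groups, in 3.41% (3.12 to 3.73) of those called in all 6, in 2.11% (0.904 to 4.84) of CB-6644-only regions and in 4.70% of all distal gene-body regions. Regions with 3 DMSO calls and 1 CB-6644 call lay between, at 6.10% (4.96 to 7.48). The same letters read backwards without complementing, a control of equal composition, were in 2.76% of the members. Of the distal gene-body regions with the element, 14.6% (13.0 to 16.4) were members, compared with 5.15% of those without it. Members that held it also ranked higher, with a median lowest percentile of 24.9 against 15.9 for the rest.

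The difference in the ATF4-CEBP element held within classes of GC content. Below 40% GC it was in 13.1% (10.996 to 15.6) of members and in 3.33% (1.87 to 5.87) of regions called in 3 libraries of both groups. From 40% to 50% GC the shares were 12.7% (10.6 to 15.01) and 3.77% (2.65 to 5.33), and above 50% GC they were 8.03% (5.26 to 12.1) and 2.45% (1.54 to 3.89). Regions called in all 6 libraries had it in 6.46% (5.23 to 7.94), 4.53% (4.04 to 5.09) and 1.82% (1.52 to 2.17) of cases in these classes, so that the gap to them was narrowest in ratio below 40% GC. The N of the element is free in the search, and the letters that filled it and that followed the element were uneven in members. Among 258 matches with a base after them inside the window, C filled the free position in 39.5%, A in 38.0%, T in 20.5% and G in 1.94%, whereas G filled it in 17.2% of the 483 matches of regions called in all 6 libraries. The next base was T in 41.9% of the matches in members and in 20.9% of those in regions called in all 6. Regions called in a single library are not members, but the same peak calls define them, so they give no independent support. In these regions the element varied in the same direction between groups. The element was in 6.45%, 7.45% and 7.66% of those of the DMSO libraries (replicates 3, 2 and 1) and in 2.21%, 2.81% and 3.81% of those of the CB-6644 libraries (replicates 3, 2 and 1), with no overlap between the groups. Over peaks in distal gene-body regions that were not confined to a group, the shares lay closer together. They were 3.97%, 4.28% and 4.09% in DMSO replicates 1, 2 and 3 and 3.47%, 3.14% and 3.45% in CB-6644 replicates 1, 2 and 3. With 3 libraries a group an exact permutation test could not have passed 0.05, and none was run.

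Elements of the IRF family were common in members, and at low GC content their shares lay near those of shared regions. The short IRF element AANNGAAA was in 1002 members (51.3%, 49.0 to 53.5), with 34.8% (32.6 to 37.0) in regions called in 3 libraries of both groups and 19.0% (14.5 to 24.5) in CB-6644-only regions. Read backwards it was still in 34.7% of the members. The longer ISRE was in 330 members (16.9%, 15.3 to 18.6), against 10.7% (9.33 to 12.2) in regions called in 3 libraries of both groups, 11.1% (10.6 to 11.7) in all 6 and 4.22% (2.31 to 7.59) in CB-6644-only regions. Its reversed letters were in 4.04% of the members. Regions with 3 DMSO calls and 1 CB-6644 call had an ISRE about as often as members, in 16.7% (14.8 to 18.8). Below 40% GC, however, the ISRE was in 25.3% (22.4 to 28.4) of members, 24.5% (20.2 to 29.5) of regions in 3 libraries of both groups and 29.2% (26.8 to 31.8) of those in all 6, so that a surplus over these shared regions was not seen in this class. From 40% to 50% GC the shares were 13.2% (11.2 to 15.6), 10.6% (8.60 to 12.9) and 14.7% (13.8 to 15.6). CB-6644-only regions stayed lower in that class, with an ISRE in 4.96% (2.29 to 10.4) and the short IRF element in 24.8% (18.0 to 33.2), against 44.7% (41.5 to 48.0) of members for the latter. The EICE, where IRF4 binds together with an ETS factor, was in 5.88% (4.92 to 7.01) of members and in 6.30% (5.91 to 6.72) of regions called in all 6.

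Some elements were scarcer in members than in other distal gene-body regions, though not each of them in every class of GC content. The E-box CAGGTG, read by TCF4 and other E proteins, was in 402 members (20.6%, 18.8 to 22.4), compared with 35.5% (34.7 to 36.3) of regions called in all 6 libraries and 40.1% (34.1 to 46.4) of CB-6644-only regions. Below 40% GC the shares in members and in all 6 were 11.7% (9.64 to 14.1) and 16.9% (14.97 to 19.1), and above 50% GC they were 40.6% (34.7 to 46.8) and 42.6% (41.4 to 43.8). From 40% to 50% GC they were 23.1% (20.4 to 26.0) and 31.5% (30.4 to 32.7). Regions called in 3 libraries of both groups had the E-box in 28.3% (26.3 to 30.4). By class, from low to high GC, their shares were 16.7%, 25.6% (22.7 to 28.8) and 36.9% (33.4 to 40.6). Above 50% GC the share of members was thus not below theirs. The MAF half-site TGCTGAC was in 54 members (2.76%, 2.12 to 3.59), in 6.80% (6.40 to 7.23) of regions called in all 6 and in 20.3% (15.6 to 25.8) of CB-6644-only regions. By class, from low to high GC, members had it in 3.32% (2.29 to 4.78), 2.24% (1.46 to 3.44) and 2.81% (1.37 to 5.69). Regions called in all 6 had it in 5.51% (4.39 to 6.91), 7.36% (6.73 to 8.05) and 6.55% (5.98 to 7.17). Below 40% GC these intervals overlapped. CTCF, the insulator factor, has a longer element that was in 38 members (1.94%, 1.42 to 2.66), in 12.04% (10.6 to 13.6) of regions called in 3 libraries of both groups and in 8.39% (7.94 to 8.86) of those in all 6. It was in 0 of the 237 CB-6644-only regions, with a Wilson upper bound of 1.60%. Below 40% GC the CTCF share was 0.983% (0.499 to 1.93) in members and 0.866% (0.484 to 1.54) in regions called in all 6. It was 6.06% (3.96 to 9.18) in regions called in 3 libraries of both groups. From 40% to 50% GC these shares were 2.13% (1.37 to 3.30), 4.42% (3.93 to 4.97) and 10.3% (8.38 to 12.6). Above 50% GC they were 4.42% (2.48 to 7.74), 13.4% (12.6 to 14.25) and 16.9% (14.3 to 19.9). The CTCF share of the members depended on single libraries, since it was 4.06% without CB-6644 replicate 2, 3.07% without DMSO replicate 2 and 3.03% without DMSO replicate 3. Over peaks not confined to a group, the CTCF share was itself highest in the libraries with the shortest peaks, at 9.86% in CB-6644 replicate 2 and 9.35% in DMSO replicate 1 against 7.76% to 8.22% in the others. The part of this in the low CTCF share of the members was not tested.

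**Figure D3:**
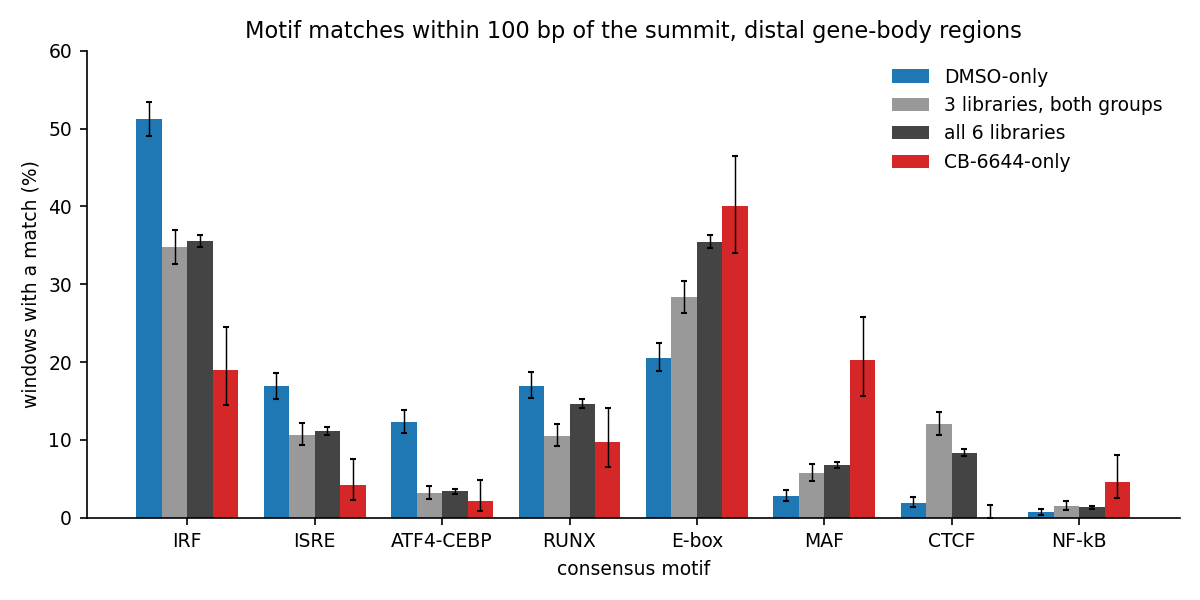
Share (%) of summit windows with each consensus element in 4 classes of distal gene-body regions, with 95% Wilson intervals as lines. The ATF4-CEBP element stands at 12.3% in DMSO-only regions and at 2.11% to 3.41% in the other classes, while the MAF half-site stands at 20.3% in CB-6644-only regions.

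Of the other elements, RUNX (TGTGGTT) was in 17.0% (15.4 to 18.7) of members, in 10.6% (9.23 to 12.1) of regions called in 3 libraries of both groups and in 14.6% (14.1 to 15.2) of those in all 6. Below 40%, from 40% to 50% and above 50% GC, members had it in 18.3%, 18.3% and 8.03%. Regions called in all 6 had it in 22.4%, 18.9% and 9.33%, so a surplus over them was not seen within these classes. For regions called in 3 libraries of both groups the shares were 15.5%, 11.9% and 6.64%. AP-1 (TGANTCA) was in 11.8% (10.4 to 13.3) of members and in 12.7% (12.1 to 13.2) of regions called in all 6. The C/EBP element TTGCNCAA was in 4.25% (3.44 to 5.23) of members and in 2.29% (2.06 to 2.56) of regions called in all 6. The NF-kB element was in 14 members (0.716%, 0.427 to 1.20), in 1.36% (1.18 to 1.57) of regions called in all 6 and in 4.64% (2.61 to 8.12) of CB-6644-only regions, and the glucocorticoid response element in 4. The XBP1 element TGACGTGG and the full NFI palindrome were in 0 of 1955 members, with a Wilson upper bound of 0.196%, and they were rare elsewhere too, in 55 and 15 of the 13949 regions called in all 6. An ISRE or ATF4-CEBP element was in 531 members (27.2%), and 907 members (46.4%) had none of ISRE, ATF4-CEBP, RUNX and E-box. ISRE and ATF4-CEBP occurred together in 39 members (1.99%), where the product of their shares is 2.07%. A match is a run of letters and not evidence of binding.

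Matches to the ISRE and the ATF4-CEBP element in members were denser at 20 to 40 bp from the summit than farther out. For ATF4-CEBP, members had 0.934 matches per kb at 20 to 40 bp from the summit and 0.332 at 80 to 100 bp, while regions called in all 6 libraries had 0.203 and 0.176. For the ISRE, members had 1.45 and 0.575 matches per kb at these distances, and regions called in all 6 had 1.06 and 0.301. A match had to lie whole inside the window, which lowers the density at 80 to 100 bp by construction. At 60 to 80 bp, members had 0.575 matches per kb for ATF4-CEBP and 0.665 for the ISRE. Regions called in all 6 had 0.165 and 0.554 there.

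**Figure D4:**
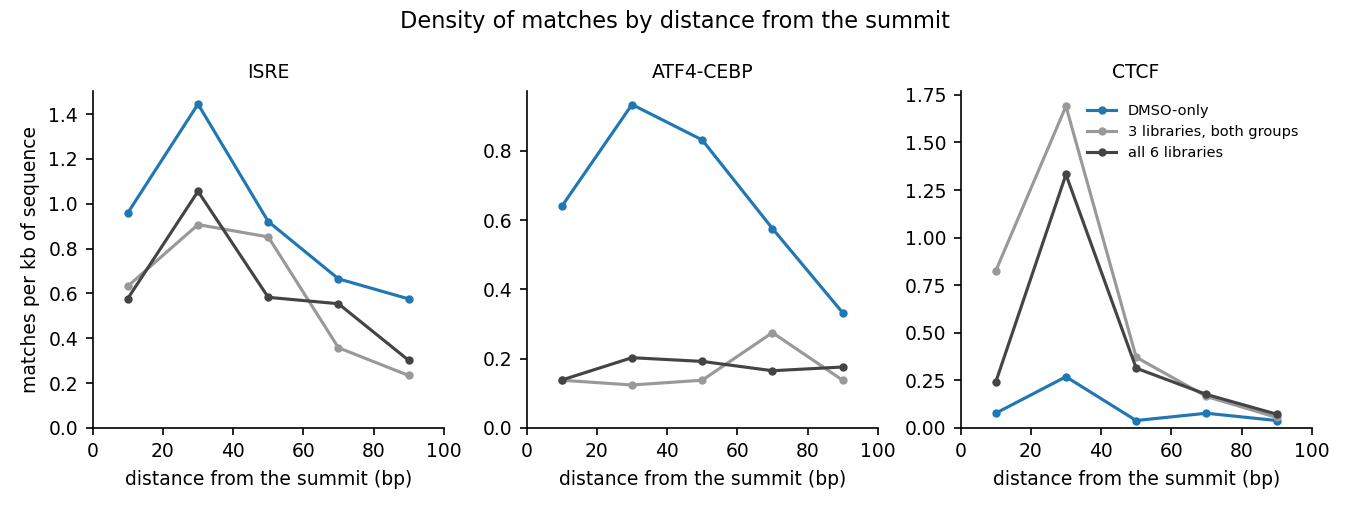
Matches per kb of sequence by distance from the summit (bp, bins of 20 bp) for the ISRE, ATF4-CEBP and CTCF elements in 3 classes of distal gene-body regions. The ATF4-CEBP line of the DMSO-only regions peaks at 0.934 matches per kb and lies above the lines of the other classes in every bin. The last bin is lowered by construction, because matches had to lie whole inside the window.

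DMSO-only regions between genes had much the same elements. Of the 37496 distal regions outside gene bodies, 1886 (5.03%) were DMSO-only, a share near the 5.6% inside gene bodies. The ATF4-CEBP element was in 13.5% (12.001 to 15.1) of them, the ISRE in 18.1% (16.5 to 19.9), the E-box in 23.9% (22.0 to 25.8) and CTCF in 2.76% (2.11 to 3.60), and their median GC was 42.0%. For each of these 4 elements the interval overlapped that of the members.

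The 1955 members lay in 1504 host genes, which were 15.4% of the 9758 genes with any distal gene-body region. Where genes overlapped, as for 80 members, the gene with the nearest canonical TSS was taken. A single member was found in 1197 hosts, 2 in 203, 3 in 76, 4 in 20, 5 in 7 and 9 in 1. Neighbouring members of the same gene lay a median of 64.2 kb apart, and 38 of the 451 neighbouring pairs were within 5 kb, so that most were separate sites. The promoter of 78.3% (76.2 to 80.3) of the hosts had a peak in all 6 libraries, compared with 69.0% (68.0 to 70.03) of genes with distal regions but no member. Hosts were longer, with a median of 151 kb against 53.4 kb, and had a median of 6 distal regions against 2. The count of genes with at least 3 members was 104, and it rose to 176 without DMSO replicate 1 and to 173 without DMSO replicate 3.

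The genes with the most members were long, and long genes hold more distal regions. CSMD1, which encodes a large membrane protein that regulates complement, had 9 members among its 61 distal regions over 2060 kb, and its regions were called 23, 28 and 22 times in CB-6644 replicates 1, 2 and 3 and 47, 40 and 33 times in the DMSO replicates. Its promoter had a peak in 3 of the 6 libraries. RIMS2, a gene of the presynaptic zone, had 5 members among 17 distal regions, with 4, 3 and 2 regions called with CB-6644 and 14, 13 and 10 with DMSO. One of its members, in intron 6, had 54, 69 and 57 tags. Such counts, here and for the genes below, include the members, which by the rule have a call in every DMSO library and in no CB-6644 library. Without its members, the lowest CSMD1 count with DMSO falls below the highest with CB-6644, while the RIMS2 counts of the groups still do not overlap. This is not particular to RIMS2. Of all host regions confined to neither group, the CB-6644 libraries called 60.6% to 64.1% and the DMSO libraries 68.0% to 75.8%. In other genes these shares overlapped, at 61.9% to 69.1% and 66.3% to 76.8%.

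NFIA, a nuclear factor I gene, had 5 members among 25 distal regions, called 13, 15 and 14 times with CB-6644 and 22, 21 and 20 times with DMSO. Its members were spread from 183 kb upstream of the canonical TSS to 338 kb into the gene, and that in intron 2 at 59.2 kb held the ATF4-CEBP element. PCDH15 and PLCB1, the latter encoding a phospholipase C, had 5 members each among 31 and 29 distal regions. PDE4B, a cAMP phosphodiesterase gene, GRIP1, which encodes a glutamate receptor interacting protein, and SUGCT, which encodes a mitochondrial CoA transferase, also had 5 members each, among 26, 31 and 20 distal regions. TBL1XR1, which encodes a subunit of the NCOR corepressor complex, was the shortest gene of this group at 209 kb and had 4 members among 20 distal regions. Its member just upstream of the canonical TSS, at 1.40 kb, had 52, 114 and 98 tags, with a fold of only 3.75, 4.05 and 3.90. MALRD1, the gene ENSG00000285713 and the teneurin gene TENM2 had 4 members each, and in MALRD1 these were 4 of only 7 distal regions.

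**Figure D5:**
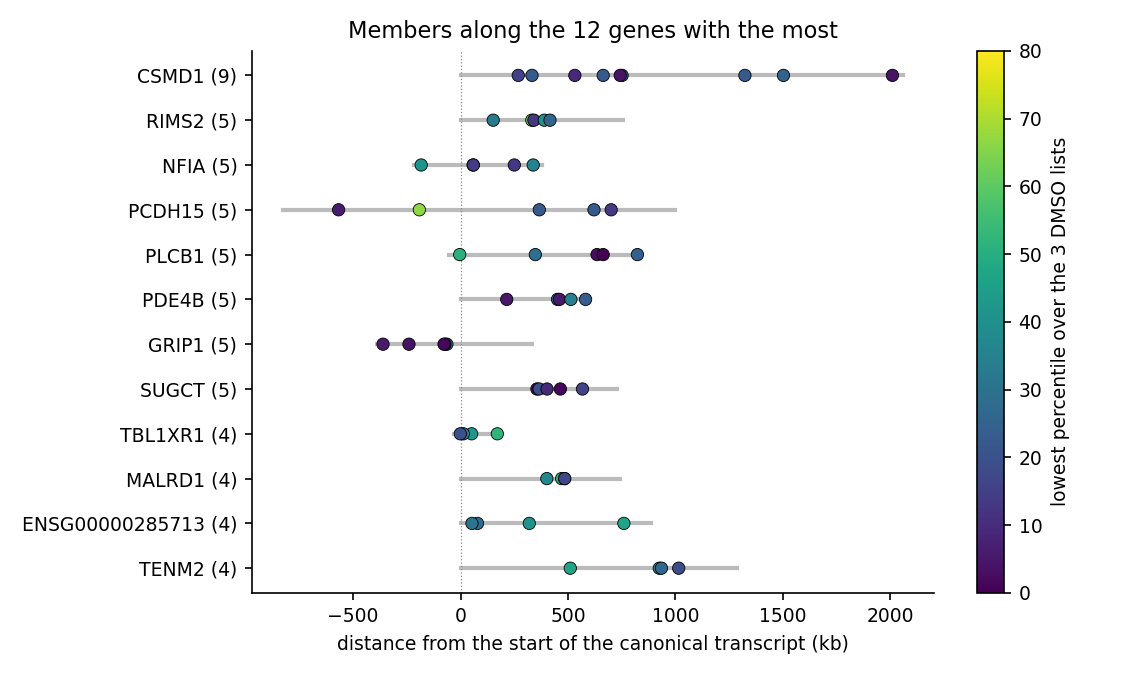
Members along the 12 genes with the most, each at its distance (kb) from the start of the canonical transcript, with grey lines for the gene bodies and colour for the lowest percentile over the 3 DMSO lists. Members are spread along the genes and include sites upstream of the canonical start, as in PCDH15 and GRIP1, and the CSMD1 line carries 9.

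IRF4, DUSP22 and CDK6 were looked up whatever their values. IRF4, a transcription factor on which myeloma cells depend, had 2 members among its 5 distal regions. That at chr6:398742-399169, in intron 6 and 7.20 kb from the TSS, had 50, 79 and 81 tags in DMSO replicates 1, 2 and 3 and held 2 E-boxes. Its fold was only 4.04, 3.14 and 2.89, and its lowest percentile was 13.8. The other, at chr6:397101-397270 and with its midpoint in a coding exon, had 36, 65 and 79 tags but ranked at percentile 1.10 in its weakest list, since the peak score is set against the local background. The neighbouring gene DUSP22, which encodes a dual-specificity phosphatase, had 1 member among 12 distal regions, in intron 3, with 47, 99 and 83 tags, and also 1 CB-6644-only region, as did IRF4. The fold at the DUSP22 member was 5.98, 5.77 and 4.87. CDK6, a cell cycle kinase gene, had 3 members among 22 distal regions and none that was CB-6644-only. They lay in intron 2 at 42.6 kb from the TSS with 19, 32 and 23 tags and an ISRE, in intron 5 at 202 kb with 21, 62 and 49 tags and an ATF4-CEBP element, and in the UTR at 223 kb with 25, 47 and 54 tags.

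Transcription factors of plasma cells and the B lineage hold many distal regions. Of 37 such genes with a distal region, 17 (45.9%, 31.0 to 61.6) held a member, beside 15.4% of all genes with a region, and 27 of their 365 regions (7.40%) were members, beside the 5.6% background, so that the share of regions lay nearer to the background than the share of genes. These genes had a median length of 129 kb, against 61.6 kb for all genes with a region. TCF12, an E protein gene, had 3 members among only 4 distal regions. The TCF12 site in intron 6 had 23, 44 and 48 tags. Those in introns 3 and 13 had 9, 18 and 18 tags and 11, 15 and 14 tags. At unaltered enrichment these weaker sites would have reached only 0.787 and 0.656 times the limit of CB-6644 replicate 2. MEF2C and RUNX1 had 2 members each, among 19 and 48 distal regions.

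MAPK signaling genes held a member in 14 of 45 cases (31.1%, 19.5 to 45.7), beside 15.4% of all genes with a region. Of their 207 regions, 9.66% were members, beside the 5.6% background. MAPK10 and MAP3K5, kinases of the JNK branch, had 3 members each. RASA2, a RAS GTPase activator gene, had 2, of which that in the first intron, 2.399 kb from the TSS, had 58, 109 and 106 tags and held both an ISRE and an ATF4-CEBP element. The fold there was 4.80, 5.13 and 5.37. RPS6KA3, a ribosomal S6 kinase gene, had 2 members among 3 distal regions. At unaltered enrichment they would have reached only 0.744 and 0.892 times the limit of CB-6644 replicate 2.

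Genes of protein processing in the endoplasmic reticulum were hosts in 12 of 39 cases (30.8%, 18.6 to 46.4), beside 15.4% of all genes with a region. Of their 157 regions, 17 (10.8%) were members, beside the 5.6% background. DNAJC1, a co-chaperone gene, had 3, and that in intron 7 had 41, 94 and 79 tags. ATF6 and ERN1, sensors of unfolded protein, had 2 each. In ERN1 the site in intron 2 at 38.7 kb had 45, 96 and 83 tags. In ATF6 the site in intron 14 held an ATF4-CEBP element and had 12, 32 and 33 tags. MAN1C1, a mannosidase gene, had 2 members, with 61, 101 and 104 tags and a fold of 5.17, 4.62 and 5.11 at the one nearer to the TSS. EIF2AK3, the kinase PERK of the same stress response, had 1 member in its first intron, with 17, 42 and 44 tags.

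Genes of O-glycan synthesis and sialylation were hosts in 11 of 40 cases (27.5%, 16.1 to 42.8), beside 15.4% of all genes with a region. Of their 269 regions, 7.43% were members, beside the 5.6% background. ST3GAL1, GALNTL6, GALNT17 and ST3GAL6 had 3 members each. The ST3GAL1 site in the first intron, 4.29 kb from the TSS, had 115, 173 and 144 tags. Its fold over the local background was only 4.59, 3.57 and 2.92. Glucocorticoid receptor genes and targets were hosts in 6 of 16 cases (37.5%, 18.5 to 61.4), beside the same 15.4%. Of their 87 regions, 8 (9.20%) were members, beside 5.6%. Hosts included the receptor gene NR3C1 with 1 member, its coactivator NCOA2 and the kinase gene SGK1 with 2 each, and KLF9 with 1.

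The remaining lists lay near the background of all genes or below it, with wide intervals. Amino acid and ATF4 stress genes were hosts in 4 of 23 cases (17.4%, 6.98 to 37.1), namely SESN1, EIF2AK4, EIF2AK3 and the glutamine transporter gene SLC1A5, with 1 member each, and none of these 4 sites held the ATF4-CEBP element. ASS1 of the arginine pathway, whose site held the element, was not on this list. Interferon response genes were hosts in 7 of 42 cases (16.7%, 8.32 to 30.6), and the JAK1 member had 51, 92 and 91 tags with an ATF4-CEBP element. The STAT4 member had 28, 62 and 61 tags, and the IFI44L member held an ISRE. Chromatin remodelers and corepressors were hosts in 4 of 28 cases (14.3%, 5.70 to 31.5), which besides TBL1XR1 were YY1, ARID1B and MORF4L1. D cyclin and CDK4/6 genes were hosts in 1 of 6 cases, CDK6. DNA replication and E2F target genes were hosts in 2 of 24 cases (8.33%, 2.32 to 25.8), RFC1 and CCNE2. NF-kB pathway genes were hosts in 1 of 23 cases (4.35%, 0.772 to 21.0), TNFAIP8. Gene length differed between the 11 lists, with medians from 36.2 to 129 kb, and its part in the shares was not tested.

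Percentiles of the other regions of the host genes can be set side by side, although a longer list with more weak peaks raises the percentile of a strong region, and the DMSO lists were mostly longer. The part of list length in these values was not tested. The 4072 host regions called in all 6 libraries had a median percentile of 56.5 ± 1.498 (SD, n = 3) in the CB-6644 lists and 63.8 ± 1.86 (SD, n = 3) in the DMSO lists, and the libraries of the groups did not overlap, at 54.8 to 57.7 and 61.9 to 65.6. In other genes, 9877 such regions stood at 58.2 ± 2.32 and 63.3 ± 3.15 (SD, n = 3), where CB-6644 replicate 2 at 60.8 passed DMSO replicate 3 at 60.1. In genes with at least 3 members, 575 such regions stood at 54.6 ± 2.03 and 63.3 ± 0.602 (SD, n = 3). Whether the difference between host genes and other genes exceeds the spread of the libraries was not tested. Of the 9834 host regions confined to neither group, the CB-6644 libraries called 62.4% ± 1.77 and the DMSO libraries 72.8% ± 4.20 (SD, n = 3), and in other genes 64.4% ± 4.05 and 72.0% ± 5.29 (SD, n = 3), a contrast that shares the libraries and list lengths of the rule. A region called in all 6 libraries was present in the same gene for 1506 members, at a median distance of 18.9 kb.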

How the data were processed

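Omni-ATAC peak lists of 6 MM.1S libraries were used, grouped by the labels. Per the submitters' processing notes, Bowtie2 2.4.2, MACS3 3.0 and hg38 were used, and each library was called on its own. The MACS3 settings are not given in the sources used here. The deposited lists hold, per peak, the authors' fold (a ratio of pile-up to local background), the -log10 p and -log10 q of the summit, a score and the summit offset, with no scaling between libraries. The deposited score was not used. No read totals are given, so depth was read from the recovered background, which ran from 3.20 to 9.08 tags per kb. Pile-up and background were solved from fold and -log10 p under a Poisson model. Whole pile-ups, within 0.02 of a whole number, came out for at least 99.85% of the solved peaks of every list, and peaks with -log10 p of 250 or more were left unsolved. The rule, the solver and the motif search were tested on simulated data.

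Genes were taken from GENCODE release 44 (20033 protein-coding genes) and sequence from the hg38 copy, and 0 peaks ran past a chromosome end. The host of a region was the protein-coding gene over its midpoint with the nearest canonical TSS. Motifs (18 consensus strings) were matched by letters. The shares carry 95% Wilson intervals, and no test was run, because the rule used the peak calls of all libraries. The members, motifs and 11 gene lists (506 genes, all matched) were chosen with earlier results of these data known. Named were the 12 genes with the most members, IRF4, DUSP22 and CDK6, up to 4 genes per list, the 10 members with the highest lowest percentile, and for 4 motifs (IRF, ATF4-CEBP, MAF and E-box) the highest such member with a match within 25 bp of its summit. The share of repeats was not analysed here. A gene that the naming rule selects is not reported here. Python 3.11.15, pandas 2.3.3, numpy 2.4.6 and scipy 1.17.1 were used.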

Additional observations from a re-analysis of the deposited data

How the results depend on the processing

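The 20 alternatives kept 354 of 421 recomputed values within 1.5 times a count or within the 95% interval of a share or median. No paired analysis was possible because the results come from no test. The number of DMSO-only regions inside gene bodies was 353 with the 20000 top peaks, 939 with equal numbers of top peaks, 3450 with the 4 libraries without short peaks, 3788 with at least 2 of 3 libraries, and 2218 to 2847 without 1 library. The CB-6644-only count was 513 with equal numbers of top peaks, 709 with the 4 libraries without short peaks, 153 with coverage of at least 50% of the region, 724 with at least 2 of 3 libraries, and 286 to 480 without 1 library. The ATF4-CEBP share was 15.9% with equal numbers of top peaks, 10.1% with the 4 libraries without short peaks, 10.3% with at least 2 of 3 libraries, 7.11% in windows of 50 bp, and 10.8% to 11.9% without 1 library. The ISRE share was 12.7% with the 20000 top peaks, 10.6% in windows of 50 bp, and 15.5% to 19.1% without 1 library. The E-box share was 29.5% with the 20000 top peaks, 22.5% with coverage of at least 50%, 12.8% in windows of 50 bp, and 19.1% to 22.3% without 1 library. The MAF share was 1.59% in windows of 50 bp. The CTCF share was 3.74% with the 4 libraries without short peaks, 2.84% with coverage of at least 50%, 3.46% with at least 2 of 3 libraries, and 2.18% to 4.06% without 1 library. Narrower windows hold fewer matches by construction, and shorter lists fewer regions. The causes of the other shifts were not tested. The share of repeat sequence was not run. Recovered pile-up limits what an absent peak can show, since the CB-6644 lists begin at 4 to 8 tags.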

Other observations

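The share of distal gene-body regions that were DMSO-only varied by chromosome. It was 7.47% (6.35 to 8.78) of 1807 regions on chromosome 4, the highest, and 1.97% (1.29 to 2.99) of 1066 regions on chromosome 19, the lowest, with 2.53% on chromosome 22 and 3.14% on chromosome 17. Base composition moved with this order. The median GC content of the summit windows was 43.8% on chromosome 4 and 57.2%, 53.2% and 51.2% on chromosomes 19, 22 and 17. CB-6644-only regions on chromosome 19 numbered 12, against 21 DMSO-only regions there.

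The 175 DMSO-only regions at promoters had a median GC content of 57.2%, against 41.3% in the members. Their 18 matches to the ATF4-CEBP element had C at the free position in 55.6% and G in 0, and T as the next base in 61.1%.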
